A study of Mus musculus with 6 samples.

Results

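The osteoblast lineage transcription factors described here are Runx2, Sp7, Dlx5, Dlx3, Msx2, Msx1 and Twist1. They were taken by name, with earlier results of these data known. They are 7 genes of the 20659 that had a probe named through a RefSeq transcript, and every probe of each gene was read. All 7 were on the array, Runx2 with 2 probes and each other gene with 1, which gives 8 probes of 39429. RNA came from MC3T3-E1 cells, an established mouse pre-osteoblast line, and all samples of both groups are this single line. The cells grew for 3 days in 24-well plates on a scaffold of FeMnSi, an iron, manganese and silicon alloy. In the FeMnSi group (n = 3) the scaffold was the original alloy and served as the reference. In the De-HA group (n = 3) it had been dealloyed, a treatment that leaches metal out of an alloy, and then coated with bioactive material. Both steps separate the groups at once, so the effect of dealloying and that of the coating cannot be told apart.

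Runx2 is the runt-domain factor without which osteoblasts do not form, and Sp7 (osterix), a zinc-finger factor of the Sp family, acts after it. The homeodomain factors Dlx5, Dlx3, Msx2 and Msx1 bind closely related sites and are induced by bone morphogenetic proteins (BMPs) in skeletal cells. In many settings Dlx proteins activate and Msx proteins repress, although Msx2 also promotes osteoblast formation. Twist1, a basic helix-loop-helix factor of osteoprogenitors, binds the DNA-binding domain of Runx2 and inhibits it, and its loss speeds osteoblast formation in the skull.

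The RefSeq promoter table of build GRCm38.p6 gave a window of 250 bases before to 50 after the start for 4 of the 7 genes (Runx2, Msx2, Msx1 and Twist1). Each window was searched on both strands for the RUNX site (TGTGGT or TGCGGT) and a site shared by Dlx and Msx homeodomains (TAATTG). It was also searched for the E-box of Twist1 and its partners (CANNTG) and the GC box of Sp factors (GGGCGG). The Runx2 window held 4 RUNX sites. Of 32851 RefSeq windows of that length, 22.4% held at least 1 and 21 windows (0.064%) held at least 4. These sites are shown because Runx2 is known to bind its own promoter. They lie in the 2 stretches below, both from the minus strand, printed 5′ to 3′ with the RUNX sites in capitals; each stretch has 1 E-box overlapping a RUNX site.
Runx2 upstream (chr17:44814690-44814719): gtgaggtcacaaACCACAtgattctgtctc
Runx2 past the start (chr17:44814579-44814608): aacaACCACAgaACCACAagTGCGGTgcaa

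Positions are counted from the start that the window is built on. The RUNX sites begin at position -80 in the first stretch and at 24, 32 and 40 in the second. Runx2 also has an annotated start further out. Only 80 bases of the window (chr17:44814798-44814877) lie before that outermost start, so both stretches fall inside the annotated gene. For the first stretch, upstream means only before the start used for the window. Msx2, Msx1 and Twist1 had no RUNX site in their windows, and TAATTG was in none of the 4 windows (8.0% of all windows hold it). Only TAATTG was searched for the homeodomains. Related strings such as TAATTA, which the Msx2 sequence below holds, were not counted. A single GC box was present in each of Msx2, Msx1 and Twist1 and not in Runx2 (35.7% of all windows hold it). An E-box was found 1 time each in Msx2 and Msx1 and 2 times in Runx2, and 72.3% of all windows hold one. A match is a string of letters only, and no binding was measured. The 250 bases upstream of the paralogs Msx2 and Msx1 are given as a pair because their probes are compared with each other further on. Both are from the minus strand of GRCm38.p6, with the GC box in capitals.
Msx2 upstream (chr13:53472781-53473030): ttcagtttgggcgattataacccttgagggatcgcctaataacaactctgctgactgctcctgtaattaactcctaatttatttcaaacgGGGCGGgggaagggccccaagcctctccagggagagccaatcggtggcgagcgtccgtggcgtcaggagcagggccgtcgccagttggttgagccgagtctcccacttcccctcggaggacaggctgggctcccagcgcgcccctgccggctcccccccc
Msx1 upstream (chr5:37824586-37824835): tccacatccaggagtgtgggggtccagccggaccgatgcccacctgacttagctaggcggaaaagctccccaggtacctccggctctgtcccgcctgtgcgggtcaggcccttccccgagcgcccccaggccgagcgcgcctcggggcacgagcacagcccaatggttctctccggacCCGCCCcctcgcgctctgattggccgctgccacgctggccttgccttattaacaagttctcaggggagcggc

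Every sample had a single-colour Agilent array of its own, and the number of arrays limits the precision. Nothing in the labels says that replicates came from separate cultures. The p-values then measure a spread between samples that may be technical. Between 63.5% and 74.4% of non-control probes were well above background per array, and no spot was saturated. A signal is given as log2 after the arrays were aligned at their 75th percentile, so a difference of 1 is 2-fold. Signals of different probes are not compared as levels. The slides named here are groups by scan time, since no slide number was read. De-HA 1, 2 and 3 had the same scan time as FeMnSi 1, and these arrays are called slide 1. FeMnSi 2 and 3 did not have that scan time, and the grouping did not ask whether they shared one with each other. They are called slide 2, which holds no De-HA array. A value within slide 1 therefore sets the 3 De-HA arrays against FeMnSi 1 alone, and it equals the estimate when the slide is a block in the fit. In RNA from whole cultures, more cells of a type and more RNA per cell cannot be told apart.

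The comparison asks whether the factors that set the osteoblast program differ in expression between the scaffolds. Of the 8 probes, 3 were higher in De-HA at an adjusted p under 0.05 (limma, Benjamini-Hochberg over 28175 probes) and none was lower. These were both Runx2 probes and the Sp7 probe, each by about 1.5-fold (1.47 to 1.56). Over all probes, 6.91% were called, 4.34% as higher and 2.57% as lower. The genes were chosen with earlier results of these data known, so the shares over all probes are set beside them as a description only. The groups did not overlap, with De-HA above, for 6 of the 8 probes, against 25.6% of all probes. All 7 genes had an estimate above 0, as did 63.1% of all genes tested. The median log2 fold change of the 7 genes was 0.22 (0.39 within slide 1), and that of all genes was 0.10 (0.05 within slide 1). All 8 probes were well above background on 6 of 6 arrays.

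The counts move with the arrays used and with the slide. Over all probes 1948 were called, 1223 of them higher (62.8%). With quantile normalization the called probes were 44.4% higher and with median scaling 39.4%, while normexp background correction gave 73.2%. The median of all probes moved from 0.12 to 0.01 with quantile normalization. Without De-HA 1, 2 or 3 the probes called were 296, 297 and 139, and without FeMnSi 1, 2 or 3 they were 7174, 343 and 137. Leaving out FeMnSi 1 leaves only De-HA arrays on slide 1 and only FeMnSi arrays on slide 2. Scaffold and slide cannot be told apart in that fit. Of the 8 probes of the osteoblast factors, 4 passed without FeMnSi 1 and 0 passed without any other single array. In each of these fits 4 of the 8 had an unadjusted limma p under 0.05, as did 44.1% of all probes without FeMnSi 1 and 21.3% to 25.9% without another array. With the slide as a block limma called 158 probes in all (0.561%) and 0 of these 8; 5 of the 8 and 17.4% of all probes had an unadjusted p under 0.05.

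**Figure D1:**
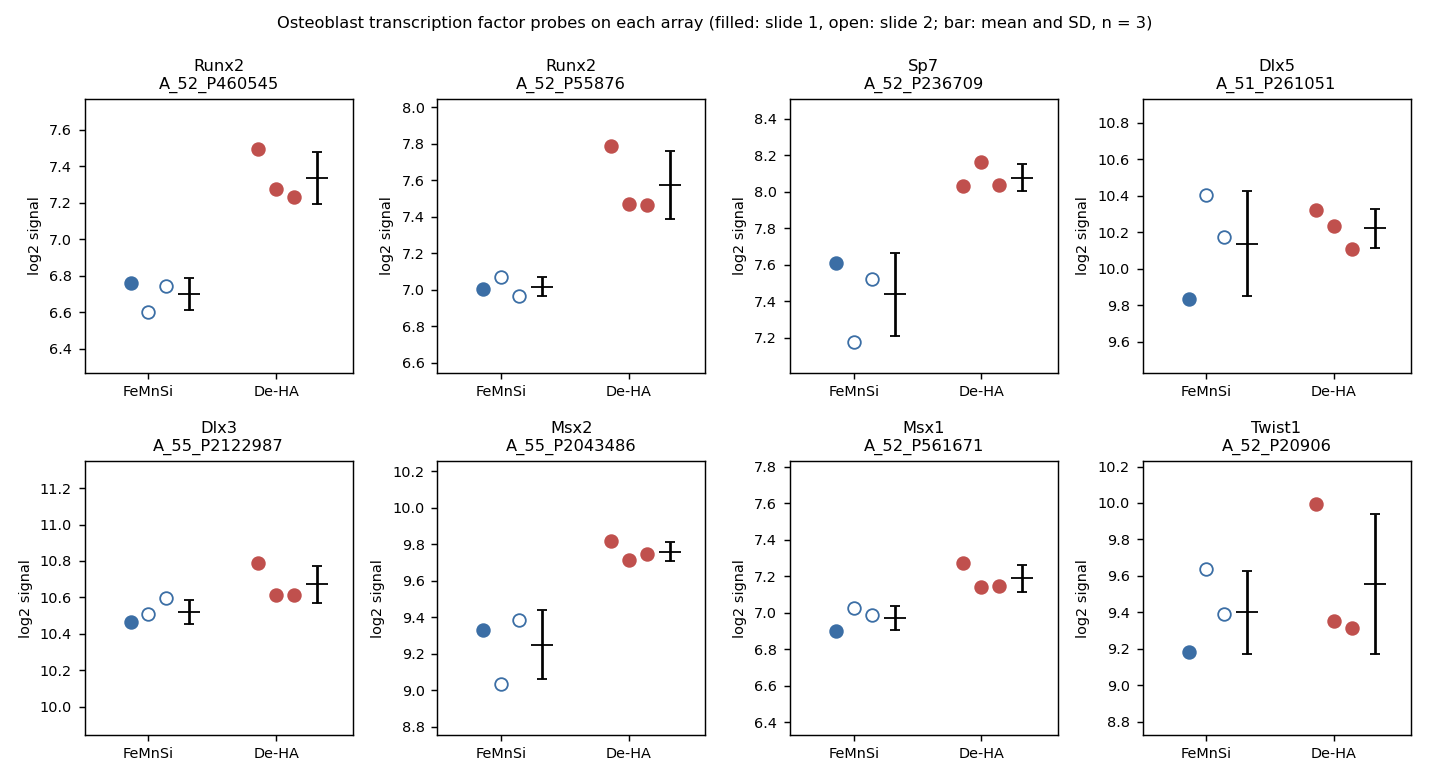
Log2 signal (vertical axis, arrays aligned at the 75th percentile) of each of the 8 probes on the 3 FeMnSi and 3 De-HA arrays; every panel spans the same number of log2 units, points are arrays (filled on slide 1, open on slide 2) and bars show mean and SD. The De-HA arrays lie above all FeMnSi arrays for Runx2, Sp7, Msx2, Msx1 and, by 0.02, Dlx3, while Dlx5 and Twist1 overlap.

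Runx2 was read by 2 probes to the same transcript. In order of replicate, the first (A_52_P460545) read 7.49, 7.27 and 7.23 in De-HA against 6.76, 6.60 and 6.74 in FeMnSi. The second (A_52_P55876) read 7.79, 7.47 and 7.46 on the De-HA arrays and 7.01, 7.07 and 6.97 on the FeMnSi arrays. De-HA 1 was the highest array on both probes, and the lowest De-HA array stood 0.47 and 0.39 above the highest FeMnSi array. Runx2 rose by 0.63 ± 0.11 (SE; 95% interval 0.37 to 0.89, adjusted p = 0.0265) on the first probe, a 1.55-fold rise. On the second it rose by 0.56 ± 0.12 (0.28 to 0.84, adjusted p = 0.0421), or 1.47-fold. Within slide 1 both probes gave 0.57, and with the slide as a block their adjusted p-values were 0.151 and 0.182.

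The Runx2 calls rest on few arrays, while the size of the difference varied less. Leaving out 1 array at a time, the first probe ranged from 0.55 to 0.68 and the second from 0.45 to 0.61. Without De-HA 1, 2 or 3 the adjusted p of the first probe was 0.0741, 0.0843 and 0.0890, and without FeMnSi 2 or 3 it was 0.0797 and 0.0966. For the second probe these were 0.0888, 0.0987 and 0.116 without a De-HA array and 0.0985 and 0.139 without FeMnSi 2 or 3. Only without FeMnSi 1 did they pass, at 0.0207 and 0.0344, in the fit where scaffold and slide cannot be told apart.

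Sp7, required for osteoblasts to mature once Runx2 is present, read 8.03, 8.16 and 8.04 on De-HA 1, 2 and 3. On FeMnSi it read, in order of replicate, 7.61, 7.18 and 7.52. The De-HA arrays lay closer together than the FeMnSi arrays, FeMnSi 2 was the lowest array, and the groups were 0.42 apart. Sp7 rose by 0.64 ± 0.13 (SE; 95% interval 0.32 to 0.96, adjusted p = 0.0407), which is 1.56-fold. Within slide 1 the difference was 0.47, with an adjusted p of 0.238 for the slide as a block. Median scaling gave 0.55 with an adjusted p of 0.0681. Without De-HA 1, 2 or 3 the adjusted p was 0.0987, 0.123 and 0.131, without FeMnSi 2 or 3 it was 0.0782 and 0.113, and without FeMnSi 1 it was 0.0203.

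Dlx5, which in bone cells binds the promoters of Runx2 and Sp7, read 10.32, 10.24 and 10.11 on the De-HA arrays. It read 9.83, 10.40 and 10.18 on the FeMnSi arrays, so that both the lowest and the highest array belonged to FeMnSi. Its difference was 0.09 ± 0.16 (SE; 95% interval -0.29 to 0.46, adjusted p = 0.723). Within slide 1 it was 0.39, since FeMnSi 1 is the low array, and without FeMnSi 1 it was -0.07. The interval leaves room for a rise of up to 1.37-fold or a fall to 0.819-fold.

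Dlx3, a relative of Dlx5 that is expressed in osteoblasts and acts on osteocalcin and Runx2 target genes, read 10.79, 10.61 and 10.62 in De-HA against 10.46, 10.51 and 10.59 in FeMnSi. The groups were apart by only 0.02. The difference was 0.15 ± 0.10 (SE; 95% interval -0.08 to 0.38, adjusted p = 0.316), 0.21 within slide 1 and 0.06 with median scaling. Neither Dlx probe passed in any of the 18 alternative fits.

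Msx2, a BMP-induced homeodomain factor of the skull and limb, read 9.82, 9.72 and 9.75 in De-HA against 9.33, 9.03 and 9.39 in FeMnSi. Every De-HA array was at least 0.33 above every FeMnSi array. The difference was 0.51 ± 0.12 (SE; 95% interval 0.23 to 0.79), a ratio of 1.42, with an adjusted p of 0.0519 that misses the threshold. Within slide 1 it was 0.43, with an adjusted p of 0.265 for the slide as a block. It passed in 5 of 18 alternative fits: normexp (adjusted p = 0.0220), the intensity trend (0.0238), without FeMnSi 1 (0.0327), 1 probe per gene (0.0393) and a filter that asked for detection on all 6 arrays (0.0367). In the fit without FeMnSi 1, scaffold and slide cannot be told apart.

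Msx1, the paralog of Msx2 that keeps craniofacial and dental mesenchyme undifferentiated, read 7.28, 7.14 and 7.15 in De-HA against 6.90, 7.03 and 6.99 in FeMnSi. The groups did not overlap and were 0.12 apart. The difference was 0.22 ± 0.09 (SE; 95% interval -0.0045 to 0.44, adjusted p = 0.163), 0.29 within slide 1 and 0.13 with median scaling. For Msx1 and Dlx3 the separation of the groups needs the scaling between arrays. The unscaled Msx1 signals were 126 to 148 in De-HA and 119 to 143 in FeMnSi, and those of Dlx3 were 1394 to 1683 and 1411 to 1669. Unscaled Msx2 signals, at 764 to 860 against 576 to 721, did not overlap, nor did those of Sp7, at 234 to 286 against 159 to 198. The first Runx2 probe was also apart unscaled (133 to 172 against 107 to 116), as was the second (157 to 210 against 128 to 148).

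Twist1 read 10.00, 9.35 and 9.32 in De-HA against 9.18, 9.64 and 9.39 in FeMnSi, again in order of replicate. De-HA 1 was the highest array, and the other De-HA arrays lay among the FeMnSi arrays. The difference was 0.15 ± 0.21 (SE; 95% interval -0.35 to 0.65, adjusted p = 0.632), the widest interval of the 8 probes. Within slide 1 it was 0.37, with median scaling 0.07, and without De-HA 1 it was -0.07. These arrays therefore give no direction for Twist1, and both a fall to 0.786-fold and a rise of 1.57-fold lie within the interval.

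**Figure D2:**
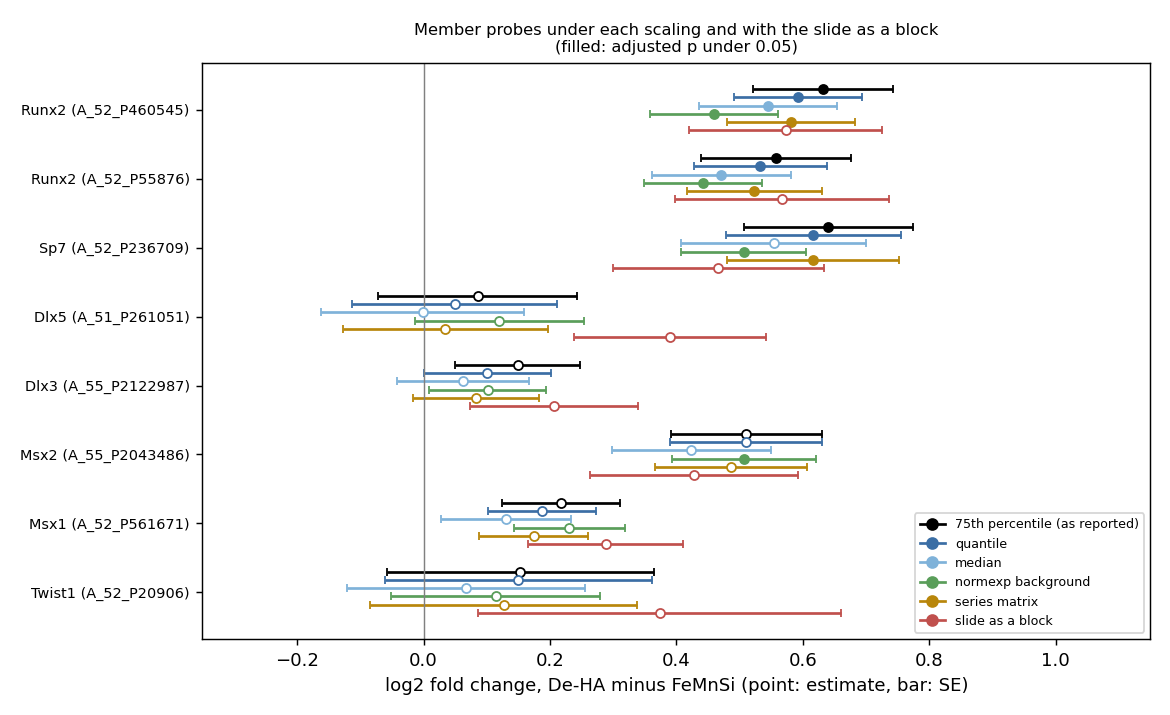
Log2 fold change (De-HA minus FeMnSi, horizontal axis; point, estimate; bar, SE) of each probe under 6 treatments of the data, filled where the adjusted p was under 0.05. Runx2, Sp7 and Msx2 stay between 0.42 and 0.64 in all 6, no probe passes with the slide as a block, and Dlx5 reaches its largest value, 0.39, there.

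Differences between 2 factors on the same array do not depend on how arrays are scaled to each other by a single factor. The 4 pairs examined were chosen after the values were seen, with the second Runx2 probe standing for Runx2. Set to the FeMnSi mean, Runx2 minus Twist1 was 0.18, 0.50 and 0.53 in De-HA against 0.21, -0.18 and -0.03 in FeMnSi. De-HA 1 fell below FeMnSi 1, so the groups overlapped. The change in this difference was 0.40 (exact two-sided permutation p = 0.2, adjusted over 4 pairs 0.4), and 0.19 within slide 1. With 3 arrays against 3 the smallest p is 0.1.

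Msx2 minus Msx1 was 0.26, 0.29 and 0.32 in De-HA against 0.15, -0.27 and 0.12 in FeMnSi. The groups did not overlap, and Msx2 gained 0.29 on its paralog (exact permutation p = 0.1, adjusted 0.4), but only 0.14 within slide 1. Sp7 minus Runx2 overlapped, with a change of 0.08 (exact permutation p = 0.6, adjusted 0.8; -0.10 within slide 1). Dlx5 minus Dlx3 overlapped too, with a change of -0.06 (exact permutation p = 0.8, adjusted 0.8; 0.18 within slide 1). None of the 4 pairs could reach 0.05, and unequal changes of any pair were not shown.

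**Figure D3:**
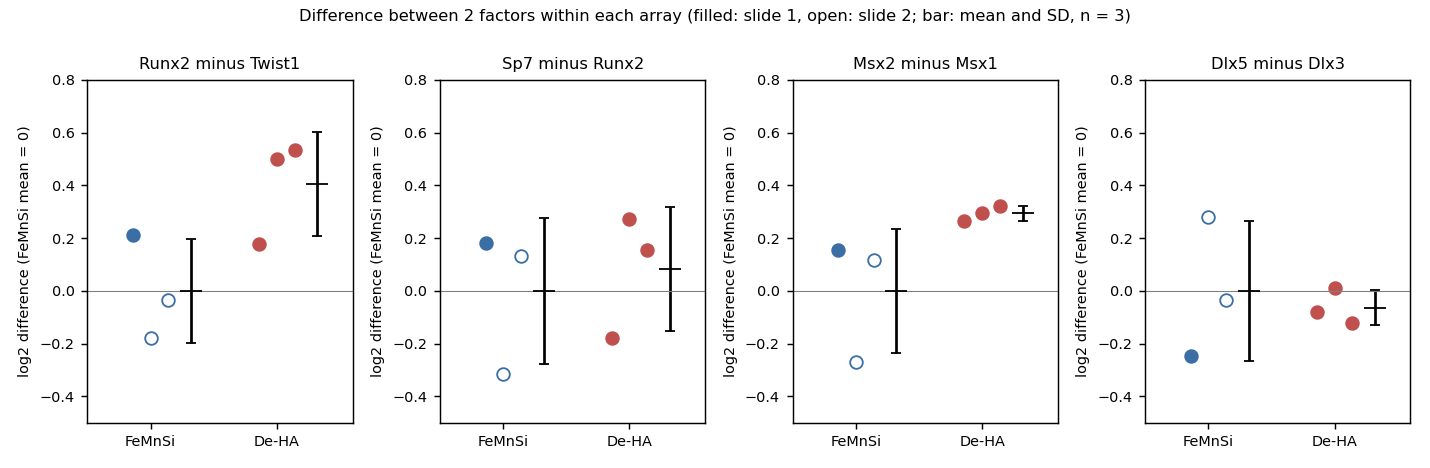
Log2 difference between 2 factors on each array (vertical axis, with the FeMnSi mean set to 0; filled on slide 1, open on slide 2; bar, mean and SD of 3 arrays). Msx2 minus Msx1 is the pair whose groups do not overlap, and FeMnSi 2 is the lowest FeMnSi array in 3 of the 4 panels and the highest for Dlx5 minus Dlx3.

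For each factor the 2 genes with the most similar pattern were found by the root mean square difference of centred log2 values over the 6 arrays. For Runx2 these were Slc30a1 (0.041), a zinc exporter gene, and Pla2g3 (0.047), a secreted phospholipase gene. For Sp7 they were the keratin gene Krt31 (0.040) and Dglucy (0.045), and for Msx2 Cald1 (0.029), which encodes the actin-binding protein caldesmon, and Arl10 (0.043). All 6 were called higher, at log2 fold changes of 0.47 to 0.69, a direction that their likeness to Runx2, Sp7 and Msx2 fixes. Under the slide block none of the 6 calls held (adjusted p 0.123 to 0.288), each held in 1 of 6 fits that left out an array (that without FeMnSi 1), and quantile normalization ended those of Pla2g3, Dglucy, Cald1 and Arl10. For Msx1 the nearest were Zfp937 (0.023) and Tbc1d20 (0.025), and for Dlx3 the coagulation factor gene F8 (0.032) and Get1 (0.034). For Dlx5 they were Plekhb1 (0.034) and Rab32 (0.045), and for Twist1 Vps13c (0.043) and Gdf3 (0.062). None of these 8 passed. With 6 arrays such likeness is a description, and no other of the 7 factors was among these nearest genes.

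Around the 7 factors, 84 genes of 7 pathway lists could be tested, each by its brightest probe, and limma called 11 higher and 4 lower. Over all genes tested 7.65% were called, 4.47% as higher and 3.18% as lower. The lists too were chosen with earlier results of these data known, so this share is a description and no test of them. Without De-HA 1, 2 or 3 the number called was 7, 5 and 3, and without FeMnSi 1, 2 or 3 it was 26, 4 and 3. With the slide as a block 2 were called, Id2 and Phex, against 0.644% of all genes.

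Among proteins that work with Runx2, 1 of 13 tested genes rose and 1 fell. The median was 0.12 (0.02 within slide 1, -0.03 with quantile normalization). Cebpd, a bZIP factor that cooperates with Runx2 on the osteocalcin promoter, rose by 0.90 ± 0.14 (SE, adjusted p = 0.0196, 0.75 within slide 1). Wwtr1, which encodes the coactivator TAZ, fell by 0.60 (adjusted p = 0.0364; -0.44 within slide 1). Cbfb, the obligate partner subunit of Runx2, was not called at 0.12 ± 0.12 (adjusted p = 0.507; named after its value was seen), and it had no settled sign, at -0.15 with quantile normalization and -0.01 within slide 1. Of 17 tested genes listed as repressors or degraders of Runx2, 2 rose and none fell, and the median was 0.22. Whether they act on Runx2 in these cells was not tested. Tle2, a Groucho-type corepressor, rose by 0.91 ± 0.13 (adjusted p = 0.0164, 0.76 within slide 1), and Snai2, a zinc-finger repressor, rose by 0.54 ± 0.08 (adjusted p = 0.0208, 0.54 within slide 1). With quantile normalization Snai2 gave 0.34 and lost its call (adjusted p = 0.0725), as it did in the series matrix (0.0775). Cebpd, Wwtr1, Tle2 and Snai2 passed in 1 of 6 fits that left out an array, the fit without FeMnSi 1; in the others the adjusted p ran from 0.0519 to 0.126.

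Twist1 acts in pairs with E proteins, and Id proteins sequester these. Of 6 tested E and Id genes 1 rose, with a list median of 0.18 (0.05 with quantile normalization). This was Id2, by 1.01 ± 0.09 (SE, adjusted p = 0.00418), a 2.01-fold rise. Within slide 1 Id2 gave 0.96, with an adjusted p of 0.0412 for the slide as a block, and it passed without each single array (adjusted p 0.00996 to 0.0380). Of 17 tested skeletal homeobox and forkhead genes limma called 0, with 5 at an unadjusted p under 0.05 (31.9% of all genes tested were under it) and a median of 0.23 (0.16 within slide 1, 0.08 with quantile normalization). Their smallest p-values were for Prrx2, a paired-type homeobox gene (0.33 ± 0.09, adjusted p = 0.0663), and Foxc2, a forkhead gene of mesoderm (-0.45 ± 0.13, adjusted p = 0.0833). Prrx2 was called with detection on all 6 arrays (0.0491), an intensity trend (0.0332) and 1 probe per gene (0.0466), but gave only 0.10 with quantile normalization. Foxc2 was called without FeMnSi 1 (0.0216), with normexp (0.0389) and with an intensity trend (0.0486), but gave -0.21 within slide 1. In the Sp family, 1 of 6 tested genes rose, with a median of 0.40 (0.20 within slide 1). Sp8, known from limb outgrowth, rose by 1.04 ± 0.12 (adjusted p = 0.0110, 0.91 within slide 1), and its other probe gave 0.56. Without De-HA 3 or FeMnSi 3 its adjusted p was 0.0591 and 0.0620.

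Of 13 tested genes that Runx2 or Sp7 are known to act on, 4 rose and 2 fell, and the median was 0.44 (0.18 within slide 1, 0.09 with quantile normalization). Phex, an endopeptidase of osteoblasts and osteocytes, rose by 1.66 ± 0.11 (SE, adjusted p = 0.00216). It gave 1.83 within slide 1, kept its call under the slide block (adjusted p = 0.0170) and passed without each single array. Vdr, the vitamin D receptor gene, rose by 1.50 ± 0.22 (adjusted p = 0.0173, 1.51 within slide 1). Ibsp, encoding bone sialoprotein, rose by 0.79 ± 0.11 on its brighter probe (adjusted p = 0.0164, 0.69 within slide 1), and its other probe gave 0.17. Alpl, the alkaline phosphatase gene, rose by 0.85 ± 0.15 (adjusted p = 0.0265, 0.64 within slide 1, 0.47 with normexp). Spp1, encoding osteopontin, fell by 1.09 (adjusted p = 0.00834, -1.04 within slide 1), and passed without each single array. Dmp1, a matrix protein gene of osteocytes named after its value was seen, fell by 0.80 (adjusted p = 0.0233, -0.64 within slide 1).

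These target calls also depended on single arrays. Vdr lost its call without De-HA 3 (adjusted p = 0.0751), FeMnSi 2 (0.0645) and FeMnSi 3 (0.0660). Ibsp lost it without De-HA 2 (0.0630), De-HA 3 (0.0751), FeMnSi 2 (0.0566) and FeMnSi 3 (0.0769). Alpl and Dmp1 kept it only without FeMnSi 1 (0.0154 and 0.0158), with 0.0737 to 0.103 for Alpl and 0.0591 to 0.0965 for Dmp1 in the other fits. Genes known as targets moved in both directions on arrays where Runx2 and Sp7 read higher in De-HA.

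BMP signals induce the Dlx and Msx genes, and of 12 tested genes of that pathway 2 rose and 1 fell, with a median of 0.31. Bmp4, a ligand gene, rose by 0.64 ± 0.11 (SE, adjusted p = 0.0244, 0.67 within slide 1). Smad6, encoding an inhibitory Smad that BMP signals induce, rose by 0.64 ± 0.13 (adjusted p = 0.0395, 0.60 within slide 1). Grem1, a secreted BMP antagonist gene, fell by 0.92 (adjusted p = 0.0130, -0.77 within slide 1). Bmp4 and Smad6 passed only without FeMnSi 1 among the fits that left out an array, with 0.0637 to 0.132 in the others. Grem1 passed without De-HA 1 (0.0387) and FeMnSi 1 (0.0118), with 0.0511 to 0.0704 in the others.

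**Figure D4:**
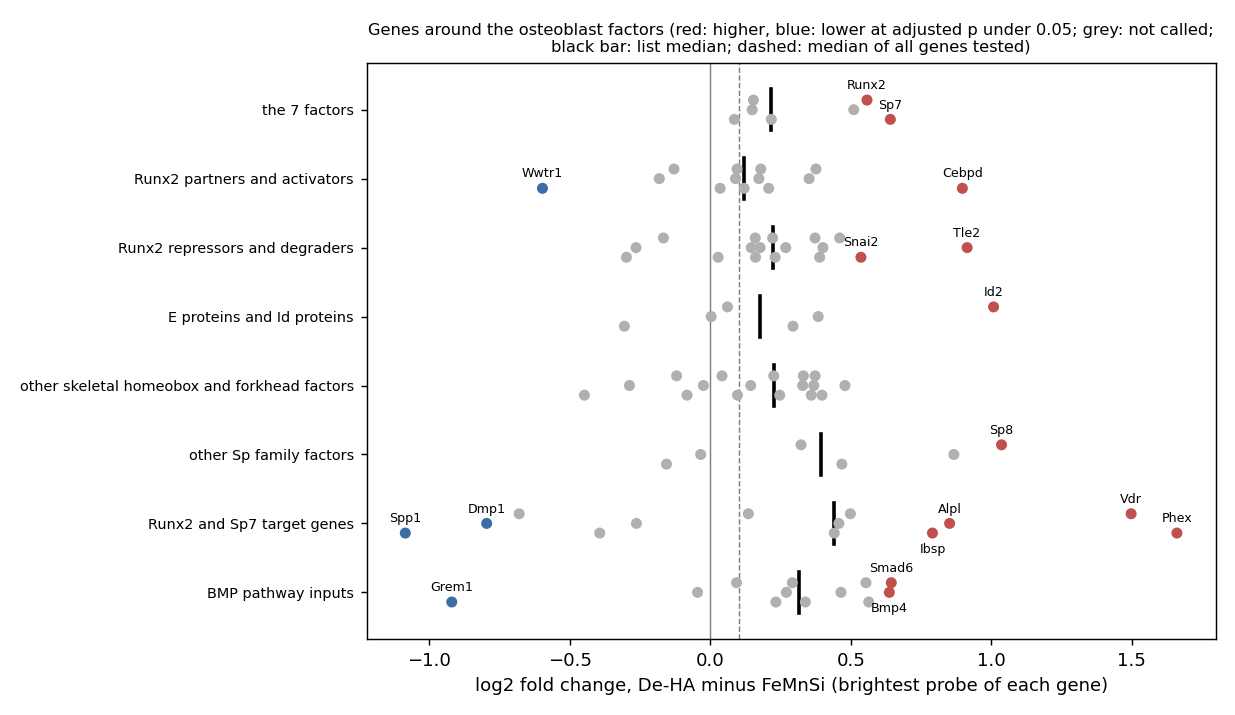
Log2 fold change (De-HA minus FeMnSi, horizontal axis) of the 7 factors and of the tested genes in 7 lists around them, 1 point per gene; red and blue are calls higher and lower, black bars list medians, and the dashed line the median of all genes (0.10). The target list spreads widest, from Spp1 at -1.09 to Phex at 1.66.

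The line was checked against its markers. All 9 osteoblast markers, which include Runx2 and Sp7, were well above background on all 6 arrays. So were all tested chondrocyte (3), myeloid (5) and endothelial (2) markers, 2 of 5 tested adipocyte and 2 of 3 tested muscle markers. Detection of a tested marker was thus not particular to the osteoblast list. Of the osteoblast markers 4 rose (Runx2, Sp7, Alpl and Ibsp) and 1 fell (Spp1). The summed signal of the osteoblast markers was 193111 to 221510 in De-HA and 152304 to 183317 in FeMnSi. Most of this sum came from the probes of Col1a2, Sparc and Col1a1, none of which was called (adjusted p = 0.0895, 0.0679 and 0.0902). Of other cell types, 3 of 6 chondrocyte markers were tested and 1 rose (Col2a1, 1.11 ± 0.10 SE, adjusted p = 0.00418), with summed signals of 14173 to 14686 and 9786 to 10133. Myod1, a muscle factor gene, rose by 1.12 ± 0.24 (adjusted p = 0.0431) among 3 of 5 muscle markers, with sums of 148 to 172 and 79.6 to 104. Its call was lost with quantile normalization (adjusted p = 0.0522), median scaling (0.0524), the series matrix (0.0553) and the slide as a block (0.262), and normexp gave 0.70. Fabp4, a fatty acid carrier gene, fell by 1.99 (adjusted p = 0.00248) among 5 of 6 adipocyte markers, with sums of 169.9 to 177 and 219 to 243. Normexp gave -0.87 for Fabp4, and the other 4 tested adipocyte markers were not called, at 0.94 for Lpl, 0.37 for Cebpa, 0.29 for Plin1 and 0.00086 for Pparg.

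Of 6 myeloid markers 5 were tested and Adgre1 rose by 0.77 (adjusted p = 0.0203), with sums of 2594 to 2901 in De-HA and 1927 to 2754 in FeMnSi. The other tested myeloid markers were not called, at 0.55 for Ptprc, 0.51 for Csf1r, 0.24 for Itgam and -0.39 for Lyz2. Of 5 endothelial markers 2 were tested and Kdr rose by 0.41 (adjusted p = 0.0411), with sums of 525 to 580 and 411 to 425. Col2a1 and Fabp4 passed without each single array, while Myod1, Adgre1 and Kdr passed only without FeMnSi 1, with adjusted p-values of 0.0559 to 0.139 in the other fits. With the slide as a block Adgre1 and Kdr lost their calls (adjusted p = 0.0899 and 0.188), while Col2a1 and Fabp4 kept theirs (0.0412 and 0.0340). Kdr also lost its call with median scaling (0.0952). Not tested, because no probe passed the filter, were Acan, Comp, Matn1, Adipoq, Cdh5, Tek, Emcn, Myog and Ckm. The part of these cell type markers in the values of the 7 factors was not tested.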

How the data were processed

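Total RNA of 6 samples was labelled with Cy3 and hybridised to 1-colour arrays; the submitters' processing notes name Agilent Feature Extraction, version 11.0.1.1. The scanner files the authors deposited hold a linear intensity per spot, background-subtracted and detrended within the array per the file headers. The authors' deposited series matrix holds log2 values with a median of 5.78 on every array (r of 0.997 to 1.00 with the log2 scanner signal) and served as an alternative. How it was made is not stated in those sources, and its direction and scale were read from that match.

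Log2 intensities were shifted by each array's 75th percentile over non-control spots (1377 of 44397 spots were controls), outlier-flagged spots dropped and remaining spots averaged by probe. A probe had to be well above background on 3 or more of the 6 arrays (28380 were), and 28175 had a value on every array. Symbols came from the RefSeq table of GRCm38.p6 by transcript accession, and 27234 probes received a single symbol; the array design's own build differs, so no probe coordinates are given. The brightest probe stood for a gene in lists (15535 genes). limma 3.58.1 in R 4.3.3 (lmFit, eBayes) fitted De-HA against FeMnSi over all 6 arrays, with Benjamini-Hochberg adjustment over all probes and a threshold of 0.05; the script was tested on simulated data. Intervals are 95%. The R package data.table (version 1.17.8) read the files, and matplotlib 3.10.9 in Python 3.11.15 drew the figures.

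The 7 genes and the lists were chosen with earlier results of these data known. Named are all probes of the 7 genes, up to 4 called genes per list with the smallest p-values (or the 2 smallest where none passed), and the 2 genes nearest to each factor. Alternatives were quantile and median scaling, normexp (offset 50), the series matrix, other filters, outlier spots kept, the slide or the replicate number as a block, slide 1 alone, an intensity trend, 1 probe per gene and leaving out each array. Normexp ran on median signals because the files hold no mean signal, with 7 local backgrounds over 100 on FeMnSi 3 set to the array median, a choice made after the data were seen.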

Additional observations from a re-analysis of the deposited data

How the results depend on the processing

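Against 1948 probes, 3 probes of the 7 factors and 15 of 84 listed genes called, alternatives gave these counts in the same order: no filter on dim probes 298, 0 and 5; the slide as a block 158, 0 and 2; slide 1 alone 6, 0 and 0; normexp 3019, 4 and 20; an intensity trend 3294, 4 and 23. Leaving out 1 array gave 137 to 7174, 0 to 4 and 3 to 26. The highest of these counts came without FeMnSi 1, where scaffold and slide cannot be told apart. Where limma called 0 of the 8 factor probes, 4 or 5 had an unadjusted p under 0.05, beside 16.9% (slide 1 alone) to 30.7% (replicate block) of all probes. Same-numbered replicates showed little shared deviation (r over probes 0.027, -0.083 and 0.14 for numbers 1, 2 and 3). Replicates with different numbers were not compared, so these values cannot decide whether the number pairs the samples. With the number as a replicate block the counts were 469, 0 and 7. The cause of these moves was not tested.

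Runx2, Sp7, Dlx3, Msx2 and Msx1 kept their sign in every alternative. Reversed were Dlx5 with median scaling (-0.0010) and without FeMnSi 1 (-0.0666; 0.22 at most without another array), and Twist1 without De-HA 1 (-0.0669; 0.27 at most). Among the nearest genes, Plekhb1 reversed with quantile normalization (-0.0757), median scaling (-0.0058), the series matrix (-0.0778) and without FeMnSi 1 (-0.0654; up to 0.21 otherwise). Rab32 did so with quantile normalization (-0.00265), median scaling (-0.0416), the series matrix (-0.0170) and without FeMnSi 1 (-0.10; up to 0.19), and Gdf3 without De-HA 1 (-0.0327; up to 0.25). Cbfb reversed with quantile normalization and the series matrix (-0.149 in both) and with the slide as a block or slide 1 alone (-0.0144 in both).

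With 3 arrays a group, differences such as that of Twist1, whose interval runs from -0.35 to 0.65, could not be told from 0. All 8 probes were well above background on every array.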
